A study of Mus musculus with 48 samples.

Results

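The Cyp4 enzymes are cytochrome P450 monooxygenases that add a hydroxyl group at or near the far (omega) end of fatty acids and eicosanoids. The members described here were taken by gene symbol, as the rows of the raw count table whose Ensembl identifiers belong to Cyp4a10, Cyp4a12a, Cyp4a12b, Cyp4a14, Cyp4b1, Cyp4f13, Cyp4f15 and Cyp4v3. Each symbol matched 1 row, so the members are 8 of the 27 Cyp4 genes and 8 of the 55487 identifiers in the table. The other 19 Cyp4 genes were used only as close relatives.

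A Cyp4 enzyme sits in the membrane of the endoplasmic reticulum, receives electrons from NADPH through cytochrome P450 reductase (Por), and uses a heme iron held by a cysteine to activate oxygen. The omega-hydroxy fatty acid it makes is oxidized further by alcohol and aldehyde dehydrogenases to a dicarboxylic acid, which peroxisomes shorten. In the kidney, Cyp4a enzymes also turn arachidonic acid into 20-HETE, a lipid that acts on renal vessels and on tubular sodium transport. Cyp4a10 and Cyp4a14 are classical target genes of the nuclear receptor PPAR alpha, and in mouse kidney Cyp4a12a is the androgen-driven, male-high member that makes most 20-HETE.

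The study cultured kidney slices ex vivo from male C57BL/6J and DBA/2J mice, which founded the BXD recombinant inbred panel, and asked how they respond to nephrotoxins and other perturbations. It sequenced polyadenylated RNA from 48 libraries in 16 groups of 3. In each strain the groups were untreated controls at 6 h and 24 h, tunicamycin (an inhibitor of protein N-glycosylation) at 6 h and 24 h, cyclosporin A (a calcineurin inhibitor) at 6 h and 24 h, normoxia, which the labels describe as an ischemia model, and normoxia followed by hyperoxia, described as a reperfusion model. Both oxygen groups carry 24 h in their titles. The titles place the controls and the drug groups under nephrotoxicity, and the oxygen groups under ischemia and reperfusion, which have no controls of their own. Comparisons of the oxygen groups with controls therefore cross these arms. In them a difference between the arms cannot be told apart from the oxygen condition. All groups share the slicing and the culture, and there is no group of uncultured kidney. The oxygen level of the controls and the age of the mice are not given in the sources used here. Nothing in the labels says that the 3 libraries of a group came from separate mice, so the p-values measure the spread between these libraries, which may be technical.

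Library totals ran from 12384733 to 25137581 assigned counts in 47 libraries, and 1 library, replicate 2 of DBA/2J under normoxia-hyperoxia, held 5619309. The mitochondrial share of the counts ran from 3.11% to 25.6% and differed between groups. It was 22.8 to 25.6% in C57BL/6J and 11.8 to 12.8% in DBA/2J under normoxia, and 5.96 to 7.87% and 3.39 to 3.60% in the 24 h controls. Levels are given below as CPM (counts scaled by the total assigned counts of the library), with the SD over n = 3 libraries. Levels of different genes are compared only as CPM per kilobase of exon. Kidney tubule markers were present in the libraries, as given below with the results they move with.

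On the mouse build GRCm38, 5 members lie in a cluster on chromosome 4, between 115299046 and 115647723. From one end to the other these are Cyp4a12a (ENSMUSG00000066071, 115299046 to 115332815, plus strand), Cyp4a12b (ENSMUSG00000078597, 115411624 to 115439034, plus strand), Cyp4a14 (ENSMUSG00000028715, 115486200 to 115496142, minus strand), Cyp4a10 (ENSMUSG00000066072, 115518264 to 115533649, plus strand) and Cyp4b1 (ENSMUSG00000028713, 115624725 to 115647723, minus strand). The relatives Cyp4a31 and Cyp4a32 lie between Cyp4a10 and Cyp4b1. Cyp4v3 (ENSMUSG00000079057) lies on chromosome 8 from 45304944 to 45333216 on the minus strand. Cyp4f15 (ENSMUSG00000073424, 32685627 to 32703352, plus strand) and Cyp4f13 (ENSMUSG00000024055, 32924688 to 32947402, minus strand) lie on chromosome 17.

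All 8 members hold the heme-binding loop once, whose cysteine is common to cytochrome P450 enzymes. The 30 coding bases of that loop are shown to let the members be compared at a site they share, 5′ to 3′ as in the spliced GENCODE M21 transcripts of GRCm38, with the cysteine codon in capitals. In every member the loop is joined across an exon junction.
Cyp4a10: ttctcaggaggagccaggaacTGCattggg
Cyp4a12a: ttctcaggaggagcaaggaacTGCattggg
Cyp4a12b: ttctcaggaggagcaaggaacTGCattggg
Cyp4a14: ttctcaggaggatcaaggaacTGCattggg
Cyp4b1: ttttctgcagggcccaggaatTGCattggg
Cyp4f13: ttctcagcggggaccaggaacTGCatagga
Cyp4f15: ttctccgctgggcccaggaacTGCatagga
Cyp4v3: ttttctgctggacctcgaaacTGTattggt
The 4 Cyp4a members are nearly alike in this loop, the 2 Cyp4f members share its last bases, and Cyp4v3 uses the other cysteine codon. Over the whole coding sequence Cyp4a10 shared 80.2% of aligned bases with Cyp4a12a, 76.1% with Cyp4a14, 60.4% with Cyp4b1 and 52.9% with Cyp4v3, and Cyp4f13 shared 76.2% with Cyp4f15.

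Some members are so alike that the counting of reads matters. Cyp4a12a and Cyp4a12b differ at 23 of 1527 coding bases and at 11 of 508 residues, and 40.8% of the 75-base stretches of the Cyp4a12a transcript also occur in Cyp4a12b. Cyp4a10 differs from its neighbour Cyp4a31 at 52 and from Cyp4a32 at 43 of 1530 coding bases, and 19.1% of its 75-base stretches occur in these relatives. The 60-base windows richest in differences are printed here as examples of where the copies can be told apart. Capitals mark positions where not all the copies printed agree. The Cyp4a12 window holds 4 of the 23 differing bases, and the others lie elsewhere in the coding sequence. The first pair is positions 624 to 683 of the Cyp4a12 coding sequence, and the other lines are positions 200 to 259 of the Cyp4a10 coding sequence and its relatives.
Cyp4a12a: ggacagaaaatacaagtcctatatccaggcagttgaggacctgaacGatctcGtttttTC
Cyp4a12b: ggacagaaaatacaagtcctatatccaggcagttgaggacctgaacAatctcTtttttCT
Cyp4a10: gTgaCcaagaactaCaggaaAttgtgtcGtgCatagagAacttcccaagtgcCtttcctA
Cyp4a31: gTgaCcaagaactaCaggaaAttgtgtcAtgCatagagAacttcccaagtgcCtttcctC
Cyp4a32: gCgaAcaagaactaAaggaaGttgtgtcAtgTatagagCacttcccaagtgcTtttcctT
Values of Cyp4a12a against Cyp4a12b, and of Cyp4a10 against Cyp4a31 and Cyp4a32, are therefore uncertain as to the copy, and sums over the copies are given beside them. For Cyp4a14 and Cyp4f13 no 75-base stretch of the transcript used was found in another gene's transcripts. For Cyp4b1 the share was 7.15% (in its pseudogenes), for Cyp4v3 6.40% (in the predicted gene Gm45753) and for Cyp4f15 0.191% (in transcripts of Cyp4f13).

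Per kilobase of exon, Cyp4b1, which acts on shorter fatty acids and also bioactivates foreign compounds, was the highest member in the 6 h controls of both strains. In C57BL/6J at 6 h its mean level was 378 CPM per kilobase, Cyp4a12a stood at 16, Cyp4a10 at 8.84 and Cyp4f13 at 4.74. In the same scale Cyp4v3 stood at 2.95, Cyp4a12b at 1.18, Cyp4a14 at 0.408 and Cyp4f15 at 0.166. Under normoxia in DBA/2J, where most members had a high level, Cyp4b1 reached 1538 and Cyp4a12a 358 CPM per kilobase, and Cyp4a10, Cyp4a12b, Cyp4f13 and Cyp4v3 stood at 16.6, 14.6, 7.11 and 2.06. Cyp4a14 and Cyp4f15 stayed below 1 CPM per kilobase there, at 0.373 and 0.243. Cyp4b1 and, in DBA/2J, Cyp4a12a were the most abundant members in these groups. Exon length here joins all annotated exons of a gene, which for Cyp4f13 is 4441 bases against 1752 in the transcript used above. The place of Cyp4f13 relative to Cyp4a10 therefore depends on the length taken.

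**Figure D1:**
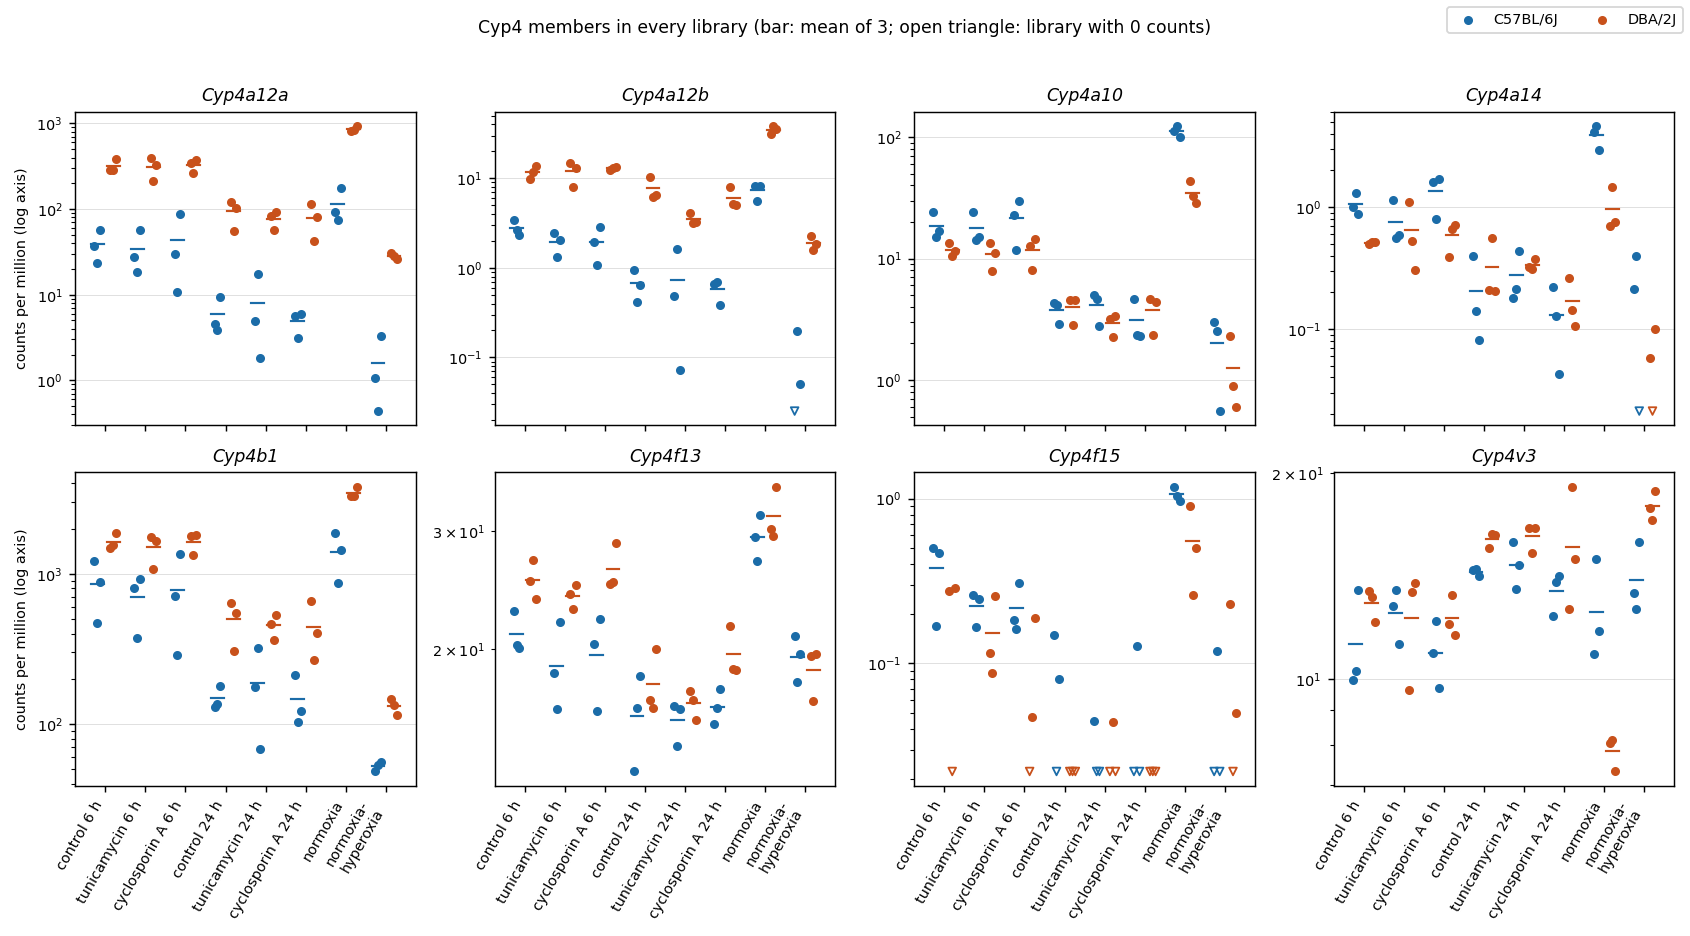
Level of each of the 8 members in every library, in CPM on a log axis, by group. Points are libraries, bars are the means of 3 libraries, and open triangles are libraries with 0 counts. The normoxia groups hold the highest libraries of 7 members, and Cyp4v3 has its lowest libraries in DBA/2J under normoxia.

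Time in culture was examined first, with 24 h controls against 6 h controls and the mean taken over both strains. Cyp4a10, Cyp4a12a, Cyp4a12b, Cyp4a14, Cyp4b1 and Cyp4f13 fell, and Cyp4v3 did not pass the test. Thus 6 of the 7 tested members were lower (adjusted p-value under 0.05 in edgeR's quasi-likelihood test, adjusted over all genes tested), in a comparison where 72.0% of all 16962 tested genes were called. Cyp4f15 did not pass the filter on low counts, and Cyp4a14 passed it only through its 6 h libraries, so that a fall of Cyp4a14 was favoured by the filter and its call adds nothing to the count. In bulk tissue such as this, fewer cells of a type and less RNA per cell cannot be told apart, here and in all results that follow.

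Cyp4b1 stood at 1209, 468 and 879 CPM in the C57BL/6J and at 1498, 1558 and 1872 CPM in the DBA/2J libraries at 6 h. At 24 h it stood at 129, 135 and 180 CPM in C57BL/6J and at 643, 305 and 546 CPM in DBA/2J. Within each strain every 24 h library was below every 6 h library. Its log2 change was -2.33 (SE 0.24, adjusted p-value 3.18e-06 in edgeR).

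Cyp4a12a, the androgen-driven 20-HETE maker, stood at 36.7, 23.2 and 56.5 CPM in C57BL/6J and at 286, 290 and 382 CPM in DBA/2J at 6 h. At 24 h its libraries held 4.58, 3.89 and 9.45 CPM in C57BL/6J and 122, 55.8 and 103 CPM in DBA/2J. The times did not overlap within either strain. The log2 change of Cyp4a12a was -2.48 (SE 0.28, adjusted p-value 1.23e-05 in edgeR), and that of its copy Cyp4a12b was -1.55 (SE 0.21). With the counts of both copies summed the log2 change was -2.41.

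Cyp4a10, the PPAR alpha target that responds to fasting and fibrates, stood at 24.1, 15.1 and 16.7 CPM in C57BL/6J and 13.4, 10.5 and 11.5 CPM in DBA/2J at 6 h. At 24 h it stood at 4.33, 4.17 and 2.91 CPM and at 4.53, 2.84 and 4.53 CPM, so neither strain overlapped between the times. Its log2 change was -2.13 (SE 0.16, adjusted p-value 2.03e-08 in edgeR), and -2.295 with Cyp4a31 and Cyp4a32 summed in. Cyp4a14, regulated in the same way and the least abundant Cyp4a member, changed by -1.64 on the log2 scale (SE 0.37, adjusted p-value 0.000974 in edgeR), from group means of 1.06 CPM (C57BL/6J) and 0.512 CPM (DBA/2J) at 6 h. In C57BL/6J alone its log2 change was -2.50, and in DBA/2J alone it was -0.77 with an adjusted p-value of 0.211 in edgeR.

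Among the members outside the Cyp4a group, Cyp4f13, of the subfamily that inactivates leukotrienes and other eicosanoids, held 22.8, 20.3 and 20.1 CPM in C57BL/6J and 25.3, 27.2 and 23.8 CPM in DBA/2J at 6 h. At 24 h it held 13.1, 16.4 and 18.2 CPM and 16.8, 16.3 and 20 CPM, below every 6 h library of the same strain. Its log2 change was -0.68 (SE 0.09, adjusted p-value 6.99e-06 in edgeR). Cyp4v3, the mouse counterpart of the gene mutated in Bietti crystalline dystrophy of the retina, had a log2 change of 0.12 (SE 0.09, adjusted p-value 0.228 in edgeR). Cyp4f15, another eicosanoid-metabolizing Cyp4f member, had 9, 3 and 9 counts in C57BL/6J at 6 h and 3, 0 and 1 at 24 h, which is at least 2.15-fold lower when 3 counts per library are taken as the floor.

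The difference between strains in the effect of time was tested as an interaction. edgeR called 0 of the 7 tested members, 3 of them (Cyp4a10, Cyp4a12b and Cyp4a14) had an unadjusted p-value under 0.05, and the lowest adjusted p-value was 0.123. DESeq2 called 1 member. Of all genes, 0.690% were called in this interaction.

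Normoxia was compared with the 24 h controls next. Cyp4a10, Cyp4a12a, Cyp4a12b, Cyp4a14, Cyp4b1, Cyp4f13 and Cyp4f15 rose, and Cyp4v3 fell. edgeR called all 8 (7 higher, 1 lower) where 82.0% of 17375 tested genes were called. Cyp4a14 and Cyp4f15 passed the low-count filter only through their normoxia libraries, so they had to differ and add nothing to that count.

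Cyp4a10 stood at 112, 123 and 100 CPM in C57BL/6J and at 43.6, 32.7 and 28.6 CPM in DBA/2J under normoxia, against the 2.84 to 4.53 CPM of all 24 h control libraries. Its log2 change was 4.27 (SE 0.15, adjusted p-value 2.70e-11 in edgeR), and 4.25 with Cyp4a31 and Cyp4a32 summed in. Cyp4a14 rose from 0.398, 0.139 and 0.0807 CPM to 4.16, 4.61 and 2.96 CPM in C57BL/6J. In DBA/2J it went from 0.208, 0.558 and 0.203 CPM to 0.696, 1.46 and 0.757 CPM, and neither strain overlapped between the conditions. Its mean log2 change was 3.07 (SE 0.34, adjusted p-value 4.65e-07 in edgeR), on at most 95 counts per library.

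Cyp4a12a stood at 91.5, 74.3 and 175 CPM in C57BL/6J under normoxia and at 824, 849 and 929 CPM in DBA/2J. All of these libraries were above the 24 h controls of the same strain, and the log2 change was 4.04 (SE 0.31, adjusted p-value 7.14e-07 in edgeR). Cyp4a12b changed by 3.08 on the log2 scale (SE 0.18, adjusted p-value 8.94e-10 in edgeR), and the sum over both copies by 3.97. Cyp4b1 stood at 1882, 868 and 1447 CPM in C57BL/6J and at 3297, 3298 and 3811 CPM in DBA/2J, with a log2 change of 3.30 (SE 0.23, adjusted p-value 1.48e-07 in edgeR). The 3 DBA/2J normoxia libraries were the highest of all 48 for Cyp4b1, Cyp4a12a and Cyp4a12b.

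Cyp4f13 stood at 29.4, 27.1 and 31.7 CPM in C57BL/6J and 30.3, 29.5 and 35 CPM in DBA/2J under normoxia, all above the 24 h controls, and its log2 change was 1.14 (SE 0.09, adjusted p-value 3.47e-09 in edgeR). Cyp4f15 had 27, 21 and 19 counts in C57BL/6J and 22, 5 and 12 in DBA/2J, against 3, 0 and 1 and against 0, 0 and 0 in the controls. These levels were at least 6.01-fold higher in C57BL/6J and at least 3.26-fold higher in DBA/2J. Cyp4v3 had a mean log2 change of -0.34 (SE 0.09, adjusted p-value 0.00183 in edgeR), with 8.06, 8.13 and 7.32 CPM in DBA/2J against 15.6, 16.3 and 16.2 CPM in the controls. In C57BL/6J it held 10.9, 15 and 11.7 CPM against 14.4, 14.5 and 14.1 CPM, which overlap.

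The normoxia effect differed between the strains for Cyp4a10 and Cyp4v3, where 17% of all genes were called in the interaction. For Cyp4a10 the log2 change was 5.06 in C57BL/6J and 3.49 in DBA/2J, a difference (DBA/2J minus C57BL/6J) of -1.57 (SE 0.31, adjusted p-value 0.00584 in edgeR). With Cyp4a31 and Cyp4a32 added to its counts the difference was -1.52 (SE 0.31, adjusted p-value 0.00879 in edgeR). For Cyp4v3 the log2 changes were 0.02 and -0.70, a difference of -0.72 (SE 0.17, adjusted p-value 0.0110 in edgeR). Cyp4a14 had entered the test only through its normoxia libraries, so no result is drawn from its call. Its log2 changes were 4.32 and 1.82, a difference of -2.50 (SE 0.75, adjusted p-value 0.0333 in edgeR). This call was lost when any 1 of 7 of the 12 libraries was left out, with adjusted p-values then of 0.0538 to 0.155. The difference ran from -3.36 without C57BL/6J control 24 h replicate 1 to -1.94 without DBA/2J control 24 h replicate 2. The libraries that ended the call were C57BL/6J control 24 h replicates 2 and 3, DBA/2J control 24 h replicate 2, C57BL/6J normoxia replicates 1 and 2, and DBA/2J normoxia replicates 1 and 3.

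Against the 6 h controls, which share no library with the 24 h controls, edgeR called all 8 members under normoxia (7 higher, 1 lower) with 65.8% of 16819 genes called. Cyp4a10 had a log2 change of 2.10 (SE 0.13), Cyp4a12a of 1.51 (SE 0.24), Cyp4a12b of 1.49 (SE 0.13) and Cyp4a14 of 1.40 (SE 0.23). With the copies summed the changes were 1.91 for Cyp4a10 with its relatives and 1.51 for Cyp4a12. Cyp4f15, which passed the filter only through its normoxia libraries and so adds nothing to the count, changed by 1.54 (SE 0.43). Cyp4b1 changed by 0.92 (SE 0.22) and Cyp4f13 by 0.42 (SE 0.07). Cyp4v3 changed by -0.27 (SE 0.10, adjusted p-value 0.0292 in edgeR), a call that was lost without the low-count filter (adjusted p-value 0.0657), under DESeq2 (0.0615) and when any 1 of 9 of the 12 libraries was left out (up to 0.154), namely C57BL/6J control 6 h replicate 3, C57BL/6J normoxia replicates 1 and 3, and any DBA/2J library. This comparison and the one with the 24 h controls use the same normoxia libraries.

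**Figure D2:**
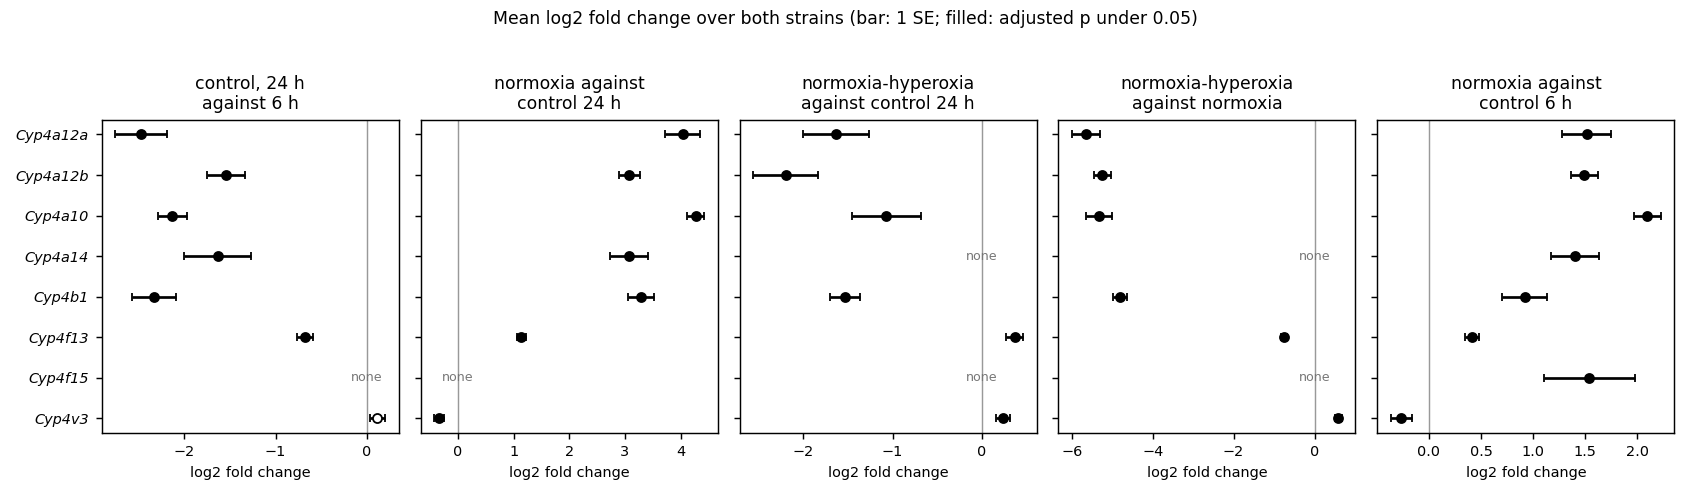
Log2 change of each member, averaged over both strains, in 5 comparisons of time and oxygen condition. Points are edgeR estimates with bars of 1 SE, filled where the adjusted p-value is under 0.05, and "none" marks a member not tested or with a group at the floor of 3 counts. Cyp4a10, Cyp4a12a, Cyp4a12b and Cyp4b1 lie above 3 for normoxia against 24 h controls and below -4 for normoxia-hyperoxia against normoxia, and Cyp4v3 stays within 1 of 0 throughout.

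Normoxia followed by hyperoxia was compared with the 24 h controls and with normoxia alone. Cyp4a10, Cyp4a12a, Cyp4a12b and Cyp4b1 were lower than in the 24 h controls, and Cyp4f13 and Cyp4v3 were higher. edgeR called all 6 members tested, where 68.2% of 17256 genes were called, and Cyp4a14 and Cyp4f15 did not pass the low-count filter.

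Cyp4b1 stood at 48.3, 53.6 and 56.0 CPM in C57BL/6J and at 146, 133 and 116 CPM in DBA/2J, below every 24 h control of its strain, and its log2 change was -1.54 (SE 0.17, adjusted p-value 6.60e-06 in edgeR). Cyp4a12a stood at 1.06, 0.438 and 3.33 CPM in C57BL/6J and at 30.7, 28.1 and 26 CPM in DBA/2J, again without overlap, with a log2 change of -1.63 (SE 0.37, adjusted p-value 0.00253 in edgeR). Cyp4a12b changed by -2.20 (SE 0.37), on as few as 0 counts in 1 C57BL/6J library, and by -3.01 without C57BL/6J normoxia-hyperoxia replicate 2. With the copies summed the log2 changes were -1.68 for Cyp4a12 and -0.92 for Cyp4a10 with Cyp4a31 and Cyp4a32. Cyp4a10 stood at 2.98, 2.55 and 0.554 CPM in C57BL/6J, where its highest library overlapped the controls, and at 2.30, 0.890 and 0.602 CPM in DBA/2J, where all were below them. Its log2 change was -1.07 (SE 0.38, adjusted p-value 0.0248 in edgeR). That call was lost without DBA/2J control 24 h replicate 1 (adjusted p-value 0.0509), without DBA/2J normoxia-hyperoxia replicate 2 (0.0502) and without DBA/2J normoxia-hyperoxia replicate 3 (0.0660).

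Cyp4f13 had a log2 change of 0.37 (SE 0.09, adjusted p-value 0.00297 in edgeR), with 20.9, 17.9 and 19.7 CPM in C57BL/6J and 19.5, 16.7 and 19.7 CPM in DBA/2J, which overlap the 24 h controls. Cyp4v3 had one of 0.23 (SE 0.08, adjusted p-value 0.0142 in edgeR), with 13.4, 12.7 and 15.9 CPM in C57BL/6J, which overlap the controls, and 17.8, 17.1 and 18.8 CPM in DBA/2J, which do not. In DBA/2J alone the change of Cyp4f13 was 0.24 (adjusted p-value 0.141), and in C57BL/6J alone that of Cyp4v3 was 0.15 (adjusted p-value 0.247). Both calls were lost with library totals as the only scaling, where the values were 0.19 (adjusted p-value 0.0809) and 0.06 (0.492), and that of Cyp4v3 also without the low-count filter (0.0803). In the interaction of strain with this comparison edgeR called 0 of 6 members, 0 had an unadjusted p-value under 0.05, and 1.43% of all genes were called. Without the low-count filter 1 member was called.

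Against normoxia alone Cyp4a10, Cyp4a12a, Cyp4a12b and Cyp4b1 were lower by more than against the 24 h controls. edgeR called all 8 members (7 lower, 1 higher) where 73.5% of 17228 genes were called, and Cyp4a14 and Cyp4f15 passed the filter only through their normoxia libraries, so they had to differ and add nothing to the count. Cyp4a12a changed by -5.66 on the log2 scale (SE 0.34), Cyp4a10 by -5.33 (SE 0.32), Cyp4a12b by -5.25 (SE 0.21) and Cyp4b1 by -4.82 (SE 0.18). Without C57BL/6J normoxia-hyperoxia replicate 2 the change of Cyp4a12b was -6.07. With the copies summed the changes were -5.66 for Cyp4a12 and -5.16 for Cyp4a10 with its relatives. Cyp4f13 changed by -0.76 (SE 0.07), with 17.9 to 20.9 CPM in C57BL/6J and 16.7 to 19.7 CPM in DBA/2J against 27.1 to 35 CPM under normoxia. Cyp4a14 had a log2 change of -4.14 (SE 0.53) in C57BL/6J, and in DBA/2J its 1, 0 and 2 counts were at least 3.40-fold lower than the 17, 28 and 18 counts under normoxia. In C57BL/6J the 0, 3 and 0 counts of Cyp4f15 were at least 7.41-fold lower. Cyp4v3 rose by 0.59 (SE 0.09, adjusted p-value 2.82e-05 in edgeR), with 17.8, 17.1 and 18.8 CPM in DBA/2J, and its log2 changes in C57BL/6J and DBA/2J alone were 0.15 (adjusted p-value 0.321) and 1.03 (adjusted p-value 5.50e-06). The comparisons of each oxygen condition with the 24 h controls share those controls, and the last comparison shares both oxygen groups with them.

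The tunicamycin and cyclosporin A slices were each compared with the controls of the same time. No difference of a member passed the test. In all 4 comparisons edgeR called 0 of the 6 or 7 tested members, 0 had an unadjusted p-value under 0.05, and DESeq2 also called 0. Of all genes, 0% were called for tunicamycin at 6 h, 1.38% for tunicamycin at 24 h, 0% for cyclosporin A at 6 h and 0% for cyclosporin A at 24 h. For cyclosporin A DESeq2 called 45 genes at 6 h and 20 at 24 h.

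Cyp4b1 stood at 375 to 918 CPM in C57BL/6J and 1077 to 1762 CPM in DBA/2J with tunicamycin at 6 h, and at 288 to 1353 and 1329 to 1812 CPM with cyclosporin A. These ranges overlap the 6 h controls in both strains. Its log2 differences were -0.20 (SE 0.24) and -0.03 (SE 0.31) at 6 h, and 0.11 (SE 0.34) and -0.11 (SE 0.28) at 24 h. Those of Cyp4a12a were -0.11 (SE 0.27) and 0.12 (SE 0.39) at 6 h, and 0.14 (SE 0.45) and -0.23 (SE 0.34) at 24 h. Differences of members ran from -0.43 (Cyp4a12b, tunicamycin at 24 h, SE 0.39) to 0.31 (Cyp4a14, cyclosporin A at 6 h, SE 0.26). In DBA/2J the Cyp4a12b libraries with tunicamycin at 24 h (4.11, 3.19 and 3.28 CPM) lay below the controls (10.5, 6.14 and 6.56 CPM). In C57BL/6J they overlapped the controls. The spread between libraries was wide for the abundant members, so that a difference of the size of these standard errors was not detectable, while Cyp4f13 and Cyp4v3 had standard errors of 0.07 to 0.11.

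The strains were then compared within 4 conditions, the controls at 6 h and 24 h, normoxia and normoxia-hyperoxia, and not within the drug conditions. DBA/2J had more Cyp4a12a and Cyp4a12b than C57BL/6J in all 4 conditions and more Cyp4b1 in 3 of them, and less Cyp4a10 at 6 h and under normoxia. edgeR called 3 members at 6 h (26.2% of genes called), 3 at 24 h (22.2%), 6 under normoxia (46.8%) and 3 under normoxia-hyperoxia (25.7%). The first pair of these comparisons uses other libraries than the second pair.

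Cyp4a12a had group means of 38.8 and 319 CPM (C57BL/6J and DBA/2J) at 6 h, 5.97 and 93.8 CPM at 24 h, 114 and 867 CPM under normoxia and 1.61 and 28.3 CPM under normoxia-hyperoxia. No C57BL/6J library reached a DBA/2J library of the same condition. The log2 differences were 2.90 (SE 0.39), 4.01 (SE 0.44), 3.00 (SE 0.39) and 4.09 (SE 0.53), with adjusted p-values of 0.000347, 9.91e-05, 0.000176 and 0.000365 in edgeR. Without C57BL/6J normoxia-hyperoxia replicate 3 the last difference was 5.19. Those of Cyp4a12b were 1.92 (SE 0.26), 3.49 (SE 0.32), 2.31 (SE 0.19) and 4.22 (SE 0.48), the last on 0, 5 and 1 counts in C57BL/6J and 5.87 without C57BL/6J normoxia-hyperoxia replicate 2. Those of both copies summed were 2.85, 3.96, 2.94 and 4.11. How DBA/2J reads fall on the C57BL/6J sequence of these copies was not tested.

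Cyp4b1 differed between the strains by 0.81 on the log2 scale at 6 h (SE 0.32, adjusted p-value 0.0891 in edgeR), by 1.73 at 24 h (SE 0.33, adjusted p-value 0.00315), by 1.38 under normoxia (SE 0.22, adjusted p-value 0.000204) and by 1.23 under normoxia-hyperoxia (SE 0.22, adjusted p-value 0.00128). Its libraries did not overlap between the strains in any of these conditions. The 6 h difference passed the threshold in some alternatives, among them without C57BL/6J control 6 h replicate 1 (1.17, adjusted p-value 0.0293) and without DBA/2J control 24 h replicate 2 (0.81, adjusted p-value 0.0432).

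Cyp4a10 was lower in DBA/2J at 6 h (log2 difference -0.80, SE 0.20, adjusted p-value 0.00971 in edgeR) and under normoxia (-1.60, SE 0.32, adjusted p-value 0.00242). At 24 h and under normoxia-hyperoxia its differences were -0.0044 (adjusted p-value 0.992) and -0.72 (SE 0.63, adjusted p-value 0.451). The latter ran from -1.70 without DBA/2J normoxia-hyperoxia replicate 1 to -0.19 without replicate 3 of that group, and passed the threshold without the low-count filter (-0.74, adjusted p-value 0.0073 in edgeR). Here the copy matters. At 6 h Cyp4a31 had 41.5 ± 10.1 CPM in the C57BL/6J libraries and 44.9 ± 5.29 in those of DBA/2J (SD, n = 3), and Cyp4a32 had at most 6 counts in any C57BL/6J library of these conditions but 1.26 ± 0.129 CPM in DBA/2J at 6 h. Summed over Cyp4a10, Cyp4a31 and Cyp4a32 the strain differences were -0.20 (SE 0.24, adjusted p-value 0.586) at 6 h, 0.68 (SE 0.26, 0.0895) at 24 h, -0.88 (SE 0.29, 0.0284) under normoxia and 0.64 (SE 0.39, 0.259) under normoxia-hyperoxia. The normoxia call was kept in the sum. The 6 h call was lost in the sum and also, without summing, in a fit of all 48 libraries (-0.82, adjusted p-value 0.0769 in edgeR).

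Cyp4a10 took 31% ± 1.78 of the counts of these 3 genes in C57BL/6J and 20.4% ± 2.26 in DBA/2J at 6 h (SD, n = 3), and 36.9% ± 1.44 and 21.9% ± 2.92 under normoxia. Over all conditions the group means were 31 to 36.9% in C57BL/6J and 15.8 to 24.9% in DBA/2J. GRCm38 is the genome of C57BL/6J, and how DBA/2J reads fall on these 3 genes was not tested either. Cyp4a12b took 7.61% ± 3.27 of the Cyp4a12 counts in C57BL/6J and 3.58% ± 0.321 in DBA/2J at 6 h.

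**Figure D3:**
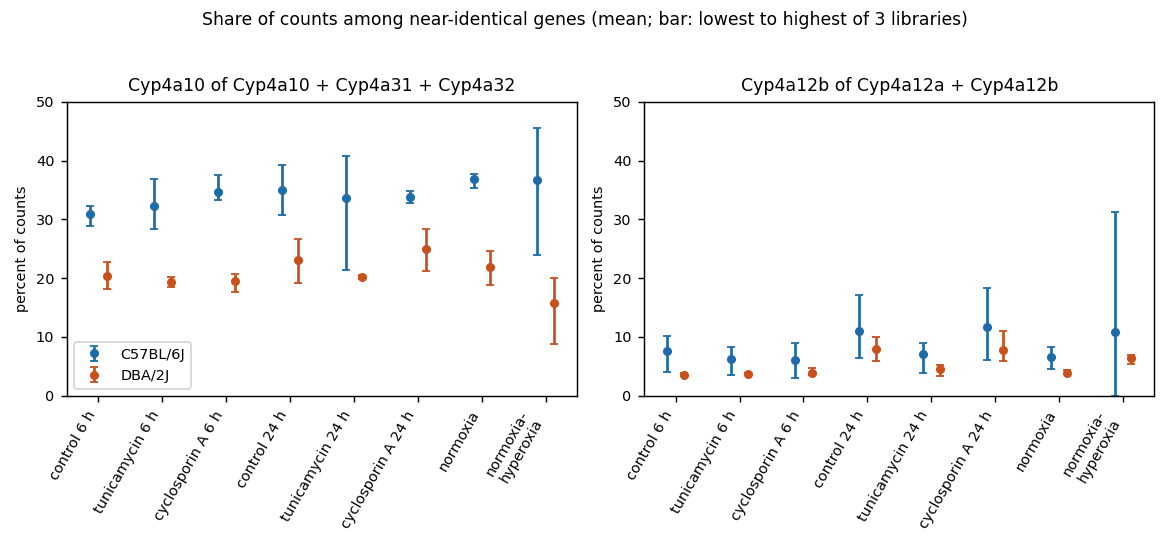
Share of the counts of near-identical copies taken by 1 copy, in percent, by strain and condition. The left part is Cyp4a10 among Cyp4a10, Cyp4a31 and Cyp4a32 and the right part Cyp4a12b among both Cyp4a12 genes. Points are the means of 3 libraries, and bars run from the lowest to the highest. The Cyp4a10 share is lower in DBA/2J in every condition, and the Cyp4a12b share spans 0 to 31.25% in C57BL/6J under normoxia-hyperoxia, where counts were few.

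The other members differed between the strains mainly under normoxia. Cyp4a14 was lower in DBA/2J there, with a log2 difference of -1.96 (SE 0.43, adjusted p-value 0.00179 in edgeR), and so was Cyp4v3, with -0.60 (SE 0.13, adjusted p-value 0.00158). Their libraries did not overlap between the strains under normoxia. At 6 h the Cyp4a14 difference was -1.19 with an adjusted p-value of 0.0631.

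**Figure D4:**
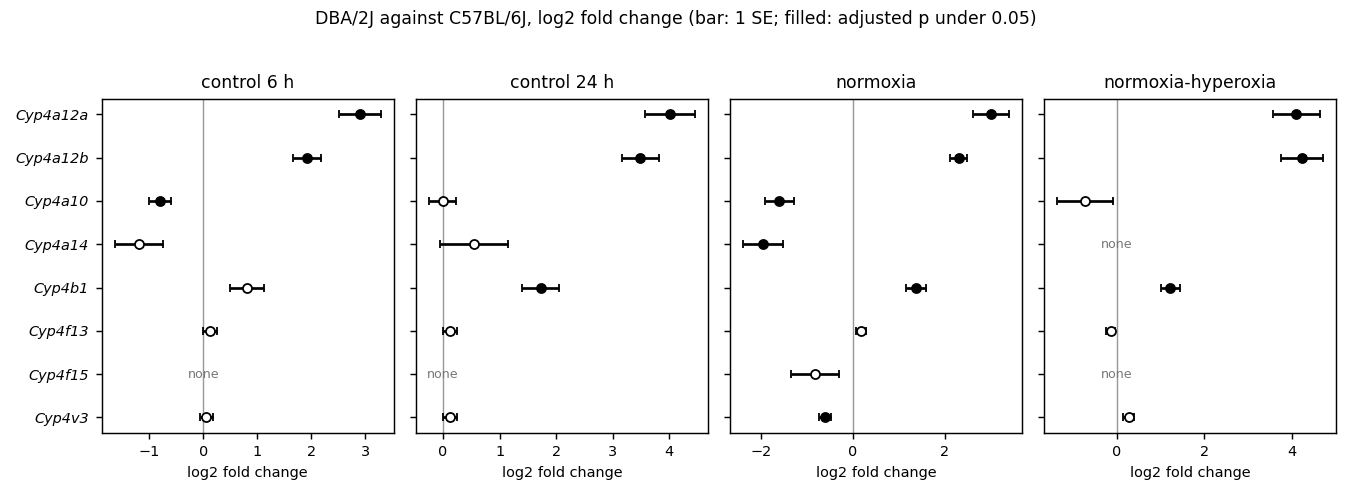
Log2 difference of each member between DBA/2J and C57BL/6J (positive where DBA/2J is higher) in 4 conditions, with bars of 1 SE, filled where the edgeR adjusted p-value is under 0.05. "None" marks a member not tested or with a group at the floor of 3 counts. Cyp4a12a and Cyp4a12b lie between 1.92 and 4.22 in every condition, and Cyp4a10 lies at or below 0.

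The abundant members moved with the markers of the proximal tubule, the segment where Cyp4a and Cyp4b enzymes are mainly made. The summed level of 15 proximal tubule markers was 6728 CPM in C57BL/6J at 6 h (4425 to 8549 over libraries), 1033 at 24 h (773 to 1179), 11609 under normoxia (9046 to 13109) and 532 under normoxia-hyperoxia (401 to 637). In DBA/2J the sums were 12495 (11813 to 13754), 3386 (2104 to 4468), 24174 (23504 to 25403) and 1563 (1296 to 1929). All 15 markers fell between 6 h and 24 h, all 15 rose under normoxia against the 24 h controls, 9 fell and 0 rose under normoxia-hyperoxia against the 24 h controls, and all 15 fell against normoxia. Their median log2 changes were -2.65, 3.65, -0.87 and -4.47, where the medians over all genes tested were -0.02, 0.05, 0.00 and 0.02. The shares of all genes called in these comparisons were 72.0%, 82.0%, 68.2% and 73.5%.

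Between the strains, 9 of the 15 markers were higher in DBA/2J at 6 h, 14 at 24 h, 9 under normoxia and 11 under normoxia-hyperoxia, and 0 were lower in any of these. Their median log2 differences were 0.97, 1.56, 1.04 and 1.57. The shares of all genes called in these comparisons were 26.2%, 22.2%, 46.8% and 25.7%. Under normoxia 5 of 6 loop and distal markers (median -0.85), all 7 collecting duct markers (-0.81) and 3 of 4 endothelial markers were lower in DBA/2J, and 0 of these lists' markers were higher. At 6 h all 4 endothelial markers were lower in DBA/2J, and under normoxia-hyperoxia all 4 immune cell markers were higher (median 0.72). All 6 markers of the loop of Henle and distal tubule were lower at 24 h than at 6 h and all 6 were higher in both oxygen conditions than in the 24 h controls, as were all 7 collecting duct markers. Under normoxia-hyperoxia against normoxia all 3 podocyte, all 4 endothelial and all 4 immune cell markers rose (medians 1.17, 1.07 and 0.93). The part of the marker levels in the members' differences was not tested. Of 3 urothelial markers 1 was tested in the comparisons with the 24 h controls, with a group at the floor, so no size is given. It was called higher with time and lower in both oxygen conditions against the 24 h controls. Adipocyte markers, which matter because fat also expresses P450 genes, had at most 0.312 CPM in these groups.

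**Figure D5:**
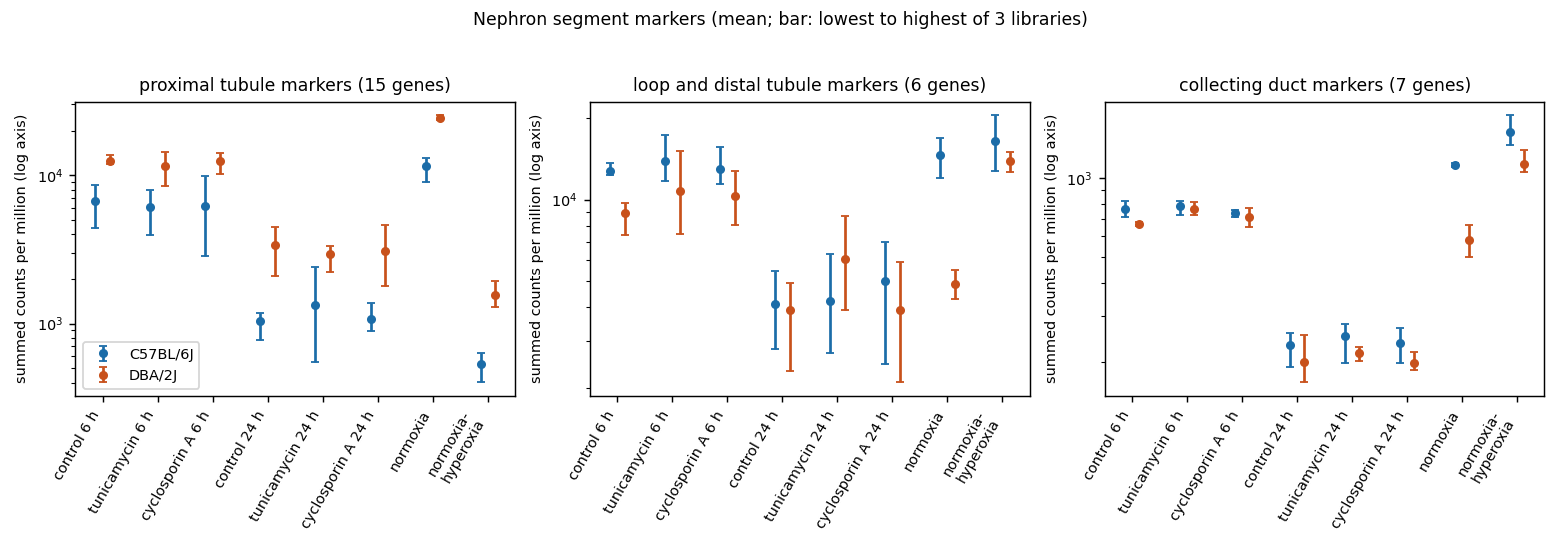
Summed CPM of 15 proximal tubule, 6 loop and distal tubule and 7 collecting duct markers by group. Points are the means of 3 libraries, and bars run from the lowest to the highest. The proximal tubule sum is highest under normoxia and lowest under normoxia-hyperoxia in both strains. It is higher in DBA/2J than in C57BL/6J in the 4 conditions compared between the strains. The loop and distal sum under normoxia-hyperoxia is 13850 to 16495 CPM as group means.

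Genes that act with the members were described by list, and their counts are to be read against the shares of all genes called in the same comparisons, 72.0% with time, 82.0% under normoxia and 68.2% under normoxia-hyperoxia against the 24 h controls, and 73.5% against normoxia. Of 10 transcription factors of fatty acid and proximal tubule genes, 7 fell and 0 rose between 6 h and 24 h (median log2 change -0.92), and 7 rose and 1 fell under normoxia against the 24 h controls (0.83). Hnf4a, a factor of proximal tubule identity, changed by -2.27 and 3.59, and Ppara, the receptor that Cyp4a10 and Cyp4a14 respond to, by -2.03 and 2.48. Under normoxia-hyperoxia Ppara was 0.88 above the 24 h controls, and 5 of the 10 factors rose and 3 fell (median 0.13). Cyp4a10 was below these controls, but its C57BL/6J libraries overlapped them. Its call was lost without any 1 of 3 libraries, as given above.

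Of the 21 PPAR alpha targets tested from a list of 22, 4 rose and 16 fell with time, 17 rose and 4 fell under normoxia against the 24 h controls, and 10 rose and 5 fell under normoxia-hyperoxia against them. Vnn1, a pantetheinase, and Acaa1b, a peroxisomal thiolase, changed under normoxia by 3.10 and 3.02, in the same direction as Cyp4a10. Plin2, the lipid droplet coat protein, and Pdk4, an inhibitor of glucose oxidation, changed by -4.54 and -3.94, in the opposite one.

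The steps after omega-hydroxylation were examined next. Of 16 genes of omega-acid oxidation, 15 fell and 1 rose with time (median log2 change -1.24), 15 rose and 1 fell under normoxia (1.58), 7 rose and 4 fell under normoxia-hyperoxia against the 24 h controls (0.24), and 14 fell and 0 rose against normoxia (-1.39). Ehhadh, the peroxisomal bifunctional enzyme, changed by -2.0 with time and 2.83 under normoxia, and Acot4, a peroxisomal thioesterase, by 2.88 under normoxia. The exception in both was Adh7, an alcohol dehydrogenase, with 3.19 and -3.59.

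Of 9 genes that supply electrons or make or break down heme, 1 rose and 5 fell with time (median -0.36) and 6 rose and 2 fell under normoxia (0.37). Cyb5a, cytochrome b5, changed by -0.98 and 1.46. Hmox1, heme oxygenase, which breaks heme down and is stress-induced, changed by 1.70 with time, -6.93 under normoxia against the 24 h controls and 5.35 under normoxia-hyperoxia against normoxia.

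Of 19 other arachidonic acid enzymes listed, 2 rose and 11 fell with time, 11 rose and 5 fell under normoxia, and 10 rose and 8 fell under normoxia-hyperoxia against normoxia. Cyp2j5, a kidney epoxygenase, changed by -2.52, 3.60 and -4.65, and Ptgs2, the inducible cyclooxygenase, by 2.08, -7.39 and 5.21. Of 8 male-high kidney genes, the class that Cyp4a12a belongs to, 7 fell and 1 rose with time (median -2.06), 7 rose and 0 fell under normoxia, and all 8 fell under normoxia-hyperoxia against normoxia (-4.14). Kap, the kidney androgen-regulated protein, changed by -2.57, 4.11 and -5.07. Between the strains 6 of these 8 were higher in DBA/2J at 6 h and 1 was lower, where 26.2% of all genes were called.

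The ordering of the 16 groups by level differed between members. DBA/2J under normoxia was the highest group for Cyp4a12a, Cyp4a12b and Cyp4b1, and C57BL/6J under normoxia for Cyp4a10, Cyp4a14 and Cyp4f15, in each case with no library overlapping the next group. DBA/2J under normoxia-hyperoxia was the highest and DBA/2J under normoxia the lowest group for Cyp4v3. Between most other neighbours in the order the libraries overlapped, and of 15 neighbouring pairs per member only 1 to 3 stood apart.

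Over the 16 group means of log2 CPM, Cyp4a12a correlated with Cyp4a12b at Pearson r = 0.991, Cyp4a10 with Cyp4a14 at 0.967, Cyp4a12a with Cyp4b1 at 0.924 and Cyp4a10 with Cyp4a12a at 0.562. Cyp4v3 correlated with Cyp4a10 at -0.60 and with Cyp4b1 at -0.65. These values describe 16 points that share strains and conditions, and carry no test. Among 12205 other genes, those closest to Cyp4b1 were Treh (0.995), the brush border trehalase, Amn (0.994) and Slc22a8 (0.994), an organic anion transporter. Closest to Cyp4a10 were Napsa (0.990), Nudt19 (0.978) and Dpys (0.976), and to Cyp4a12a, besides Cyp4a12b, Dpp7 (0.987) and Renbp (0.986). Closest to Cyp4f13 were Acp6 (0.988) and Txndc15 (0.986), and to Cyp4v3 Mical1 (0.926) and Lrrc75a (0.914).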

How the data were processed

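The authors deposited 1 table of raw read counts per Ensembl gene for all 48 libraries, whose unit is whole-number counts. Libraries were stranded poly(A) preparations, per the labels' protocols. The submitters' processing notes name bcl2fastq 2.20.0, FastQC 0.11.8, STAR 2.7.9a, featureCounts 1.5.1 and GRCm38, without their roles; the annotation release, the strand setting and the treatment of reads that map to several genes are not given in the sources used here. Identifiers were matched to symbols through the GENCODE M21 annotation of GRCm38 (55141 of 55487), which also gave transcript sequences.

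Each comparison was fitted on its 4 groups (12 libraries, 8 residual degrees of freedom) with edgeR 4.0.16 under R 4.3.3 (filterByExpr, TMM scaling, quasi-likelihood F test), with p-values adjusted by Benjamini-Hochberg over all genes tested and a threshold of 0.05. Standard errors are the log2 change divided by the square root of F. A group with at most 3 counts in every library was treated as at the floor. The alternatives were DESeq2 1.42.0, its size factors (RLE) in edgeR, library totals as the only scaling, no low-count filter, no mitochondrial genes, a fit of all 48 libraries, near-identical genes summed, a replicate block and leaving out each library. The edgeR test of the mean over both strains was tried on simulated counts in the layout of the 12 control libraries. The other contrasts and the alternatives were not tried in this way. CPM, shares and figures were made with python 3.11.15, pandas 2.3.3 and matplotlib 3.10.9.

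All 8 members are named, with their Cyp4 relatives where reads could be shared. Genes closest over the group means (minimum mean log2 CPM of 1, prior count of 2) were sought for each member. They are named for Cyp4a10, Cyp4a12a, Cyp4b1, Cyp4f13 and Cyp4v3. At most 4 genes per list and comparison are named, those with the largest called changes. The members and the lists were chosen with earlier results of these data known. The replicate numbers were not used as pairs.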

Additional observations from a re-analysis of the deposited data

Results flagged for a closer look

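Cyp4a10 and Cyp4v3 had effects of normoxia against the 24 h controls that differed between the strains by the interaction test (log2, DBA/2J minus C57BL/6J, edgeR). Cyp4a10 differed by -1.57, higher under normoxia in 6 of 6 libraries but by less in DBA/2J. Cyp4v3 differed by -0.72, with a lower level under normoxia in all 3 DBA/2J libraries and libraries that overlapped the controls in C57BL/6J. Cyp4a14 differed by -2.50 on few counts, but it had entered the test only through its normoxia libraries and the call was lost without any 1 of 7 libraries, so no result is drawn from it.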

How the results depend on the processing

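The alternatives were tallied for the members' changes with time and oxygen and for the strain differences of Cyp4a10, Cyp4a12a, Cyp4a12b and Cyp4b1. Other strain differences and interactions entered only where the main fit called them, and the drug comparisons were left out. In this tally 1122 kept the direction and the side of the threshold, 26 lost the call, 6 gained one and 6 changed sign. Gains by members that the main fit did not call in the interactions are thus not among the 6. The sign changes concern Cyp4a10 between the strains: at 24 h, where no difference passed the test, it was 0.029 with library totals only, 0.68 with relatives summed and -0.15 to 0.20 with 1 library left out, and under normoxia-hyperoxia it was 0.64 with relatives summed. Without the low-count filter the members called were 3 in the interaction of strain with time, 5 in that with normoxia and 1 in that with normoxia-hyperoxia, and DESeq2 called 1 in the first. At 6 h 3 to 5 members differed between the strains with 1 library left out, 5 without DBA/2J control 24 h replicate 2. Over all genes, 817 (no filter) and 332 (DESeq2) were called against 117 in the interaction with time, and 1156 and 682 against 247 in that with normoxia-hyperoxia. Tunicamycin at 24 h changed 536 genes by DESeq2 against 233. With 1 library left out these 3 counts ran from 46 to 226, from 103 to 524 and from 78 to 344. The interaction with normoxia went from 2956 to as few as 1860. The cause was not tested.

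With library totals only, the median over all genes went furthest under normoxia against the 24 h controls, from 0.05 to -0.22. The higher share of called genes went from 48.1% to 60.4% with time, from 51.6% to 41.5% under normoxia, from 49.96% to 39.01% under normoxia-hyperoxia against the 24 h controls, from 51.7% to 75.7% between the strains at 6 h and from 55.8% to 74.0% under normoxia-hyperoxia, and in the interactions from 60.7% to 27.4% (time), from 59.6% to 37.9% (normoxia) and from 66.4% to 78.8% (normoxia-hyperoxia); Cyp4v3 then passed with time (0.33, adjusted p-value 0.00364 in edgeR). Without mitochondrial genes no member's call changed. The replicate numbers were not treated as pairs: the correlations of same-numbered libraries ran from -0.139 to 0.366 over the 9 fits, and in no fit were all above 0.1 (0.0667 to 0.257 for normoxia against 6 h controls). A replicate block called 71 genes against 117 in the interaction with time and 618 against 247 in that with normoxia-hyperoxia. It left the members called at 6 with time and 8 under normoxia, and Cyp4b1 then differed between the strains at 6 h (0.89, adjusted p-value 0.0276 in edgeR). Few counts limit Cyp4f15, Cyp4a14 and Cyp4a12b in C57BL/6J. Of the 3 genes closest to Cyp4a12a, Cyp4b1 and Cyp4f13, 1 each was among the closest over 48 libraries, and 0 for Cyp4f15.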
